A study of Mus musculus with 12 samples.

Results

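The data compared here are the hypothalamus transcriptomes of Gpr75-/- mice on a high-fat diet (HFD) and of Gpr75-/- mice on chow. GPR75 is a G protein-coupled receptor of neurons that the study followed for its part in food intake and body weight, and this comparison asks which hypothalamic mRNAs differed between the diets in mice without it. RNA-Seq had been done on 12 mice in 4 groups of 3, of which the 6 Gpr75-/- mice are the subject and the 6 WT mice on the same diets serve as reference. Genes were taken where the mean normalized count of a diet's 6 mice was at least 100 on both diets, which kept 12331 of the 16438 genes listed on both diets and of the 17161 listed on either.

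The first group was Gpr75-/- mice on chow and the second was Gpr75-/- mice given a lard-based HFD from 6 weeks of age for 2 weeks. The reference groups were WT mice (labelled +/+) on chow and WT mice on the HFD. All mice were C57BL/6J males of 8 weeks. The Gpr75-/- allele was made by CRISPR/Cas9 and ends translation close to its start in every cell of the animal from the germ line on, so that the mRNA can still be made. Each mouse gave 1 hypothalamus library made from mRNA.

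The deposited values are 1 mean per gene and group, on a log scale, with no value of a single mouse and no SD. They were turned into log2 CPM, the log2 of counts scaled to a common library total, and a diet difference is the HFD mean minus the chow mean on that scale. A difference of 1 is thus a 2-fold one. No difference below has a replicate check, a standard error or a p-value, and "higher" and "lower" describe the means of 3 mice. As yardsticks, a gene was counted as past the fold at a difference of at least 0.5 in either direction, a smaller difference was counted from 0.2, and the gap between Gpr75-/- and WT mice on the same diet was given beside the diet difference. Each diet has its own table, scaled on its own by the authors, so the diet and anything else that separated the tables cannot be told apart. The mean normalized counts, which stand for the depth of an average mouse, summed to 18280462 on chow and 19420111 on HFD. The deposited means have 2 decimals, and this rounding leaves an uncertainty on each gene's difference, with a median over genes of 0.0428 and at most 0.103. Of the markers of the labelled tissue, 25 of 35 hypothalamic transcription factors and 9 of 14 hypothalamic hormone genes passed the count minimum. In whole tissue, fewer cells of a type and less RNA per cell cannot be told apart.

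The hypothalamus senses leptin, nutrients and hormones and sets food intake through opposed neurons of the arcuate nucleus. One kind makes proopiomelanocortin, the precursor of the satiety peptide α-MSH, together with CART, and the other makes neuropeptide Y and agouti-related peptide, which raise appetite. Orexin and melanin-concentrating hormone neurons of the lateral hypothalamus raise feeding, and oxytocin, corticotropin-releasing hormone and thyrotropin-releasing hormone come mainly from the paraventricular nucleus.

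Short upstream sequences of 5 genes on which the results turn are given first, because they carry short elements known for activity-dependent or basal transcription. *Btg2*, *Dusp1* and *Nr4a1* are immediate early genes, which neurons switch on within minutes of activity, and were lower on HFD. *Cartpt* and *Pomc* encode satiety peptides and were higher. The sequences are RefSeq's, 5′ to 3′ on the gene's strand, and end 1 base before the annotated start. Capitals mark the cAMP response element TGACGTCA in *Btg2*, *Dusp1* and *Cartpt*, its core TGACG or CGTCA in *Nr4a1*, and the TATA box TATAAA in *Pomc*. Their coordinates are of build GRCm38.p6, which differs from the GRCm39 build of the expression files: *Btg2* chr1:134079156-134079335, minus strand; *Dusp1* chr17:26508473-26508652, minus strand; *Nr4a1* chr15:101266746-101266845, plus strand; *Cartpt* chr13:99900684-99900833, minus strand; and *Pomc* chr12:3954845-3954944, plus strand.
Btg2: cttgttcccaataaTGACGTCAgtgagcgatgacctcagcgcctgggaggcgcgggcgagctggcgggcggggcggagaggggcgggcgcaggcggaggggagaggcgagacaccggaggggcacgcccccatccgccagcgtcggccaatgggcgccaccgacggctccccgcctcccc
Dusp1: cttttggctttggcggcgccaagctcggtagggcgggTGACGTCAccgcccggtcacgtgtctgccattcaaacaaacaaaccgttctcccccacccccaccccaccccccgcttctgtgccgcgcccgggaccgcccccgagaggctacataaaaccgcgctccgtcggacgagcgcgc
Nr4a1: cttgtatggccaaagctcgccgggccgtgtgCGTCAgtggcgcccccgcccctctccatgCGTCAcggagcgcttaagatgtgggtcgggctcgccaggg
Cartpt: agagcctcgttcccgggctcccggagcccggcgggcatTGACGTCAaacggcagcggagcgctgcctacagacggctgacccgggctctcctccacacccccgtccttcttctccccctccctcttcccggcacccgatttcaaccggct
Pomc: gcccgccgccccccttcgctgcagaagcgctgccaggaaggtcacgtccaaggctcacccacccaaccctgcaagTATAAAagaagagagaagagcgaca

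The cAMP response element starts 166 bases before the start of *Btg2*, 143 before that of *Dusp1* and 112 before that of *Cartpt*. Over all 32851 RefSeq promoters, 1.55% hold this element within the 250 bases before the start, 17.8% hold a core on either strand, and 7.59% hold TATAAA on the gene's strand. The full element, a palindrome, contains both forms of the core and is counted among the cores too. *Nr4a1* holds cores that start 69 and 40 bases before its start, and the TATA box of *Pomc* starts 25 bases before its own. The element is present in genes that differed in opposite directions, and these matches describe the letters alone.

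*Gpr75* itself (ENSMUSG00000043999, GRCm39 chromosome 11, 30835358 to 30843729) had group means of 4.06 log2 CPM in WT mice on chow, 4.62 in Gpr75-/- mice on chow, 4.31 in WT mice on HFD and 4.21 in Gpr75-/- mice on HFD. Its mRNA was thus highest in the Gpr75-/- mice on chow, and the diet difference was -0.41 in Gpr75-/- and 0.25 in WT mice. Since the allele leaves the mRNA in place, this level does not check the genotype labels. The gene's span overlaps that of *Asb3*, and no source used here states whether counting used strand.

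Few genes differed strongly between the diets in Gpr75-/- mice, and most of those that did were lower on HFD. Past the fold of 0.5, 14 genes were higher (0.114% of all genes compared) and 68 were lower (0.551%). In WT mice 27 genes were higher (0.219%) and 58 were lower (0.470%). At 0.2, 458 genes were higher (3.71%) and 801 lower (6.50%) in Gpr75-/- mice, so that 89.8% lay within 0.2, and in WT mice 852 were higher (6.91%) and 1099 lower (8.91%). The median over all genes was 0.00, and the central 90% of genes lay between -0.22 and 0.18.

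These numbers need the differences between genotypes on the same diet beside them. Between Gpr75-/- and WT mice, 65 genes were past 0.5 on chow and 18 on HFD, against 82 for the diets in Gpr75-/- mice and 85 in WT mice. Of the 14 higher genes, 10 had a diet difference larger than their own genotype gap on both diets, and of the 68 lower genes 61 did. Among the 14 higher genes the Gpr75-/- HFD mean was above the other 3 groups in 12, and among the 68 lower genes it was below the other 3 groups in 59. The Gpr75-/- chow mean was at the opposite end in 9 of the 14 and 36 of the 68. All these genes were chosen by the gap between the same Gpr75-/- means. The counts of this paragraph for the 14 and 68 genes are thus partly set by that choice and describe the values only.

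**Figure D1:**
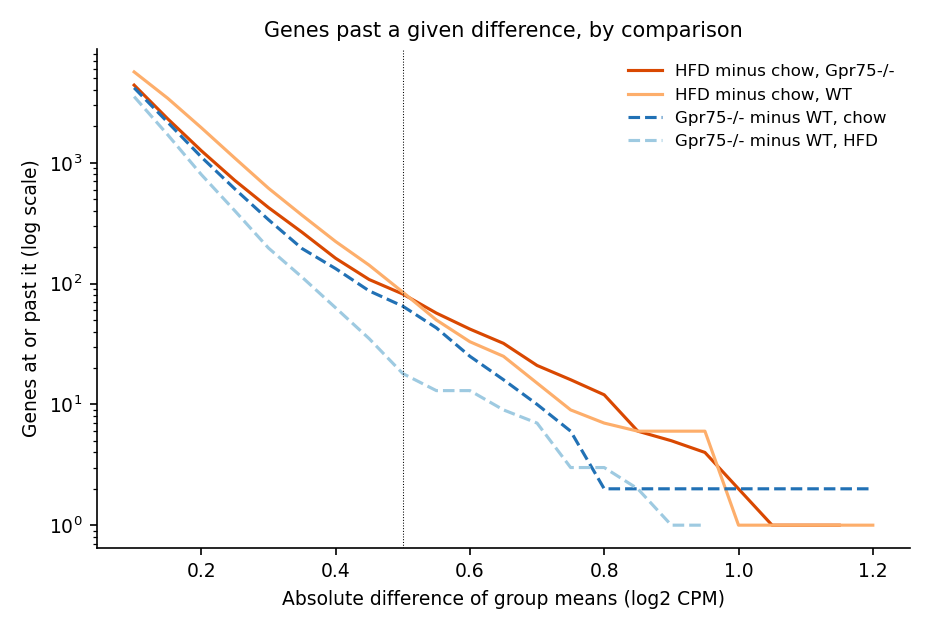
Number of genes (log axis) at or past an absolute difference between 2 group means (log2 CPM), for the diets in each genotype and for the genotypes on each diet. At the dotted line of 0.5 the diet curve of Gpr75-/- mice counts 82 genes, that of WT mice 85, and the genotype curves 65 on chow and 18 on HFD.

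The most marked difference in a feeding gene was that of *Pomc* (ENSMUSG00000020660, GRCm39 chromosome 12, 4004951 to 4010642). Its group means were 4.10 log2 CPM in WT mice on chow, 3.82 in Gpr75-/- mice on chow, 4.35 in WT mice on HFD and 4.82 in Gpr75-/- mice on HFD. The Gpr75-/- groups were thus the lowest and the highest of the 4, with 1.99 times as much *Pomc* mRNA on HFD as on chow, a difference of 0.99. In WT mice the difference was 0.25. *Ptgds*, which encodes a prostaglandin D synthase abundant in meninges, choroid plexus and oligodendrocytes, was the only gene with a larger positive difference, 1.05 in Gpr75-/- and 0.65 in WT mice.

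Other genes of satiety peptides were higher too. Of the 15 listed appetite-lowering peptides 11 were measured, 8 were higher by at least 0.2 (3.71% of all genes) and 1 was lower (6.50% of all genes), and their median was 0.23 against 0.00 over all genes and 0.05 for the same list in WT mice. *Cartpt*, the CART precursor, had 5.87 log2 CPM on chow and 6.26 on HFD in Gpr75-/- mice, and 6.01 and 6.06 in WT mice. *Oxt*, encoding oxytocin, differed by 0.33 and *Tac1*, encoding substance P, by 0.31. *Nucb2*, the nesfatin precursor, differed by 0.26, *Nts*, encoding neurotensin, by 0.23, *Crh* by 0.21 and *Adcyap1*, encoding PACAP, by 0.21. *Trh* at 0.10 and *Bdnf* at 0.08 stayed under 0.2.

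The exception was *Cck*, encoding cholecystokinin, which is also made in cortex and thalamus. It had 5.50 log2 CPM on chow and 5.02 on HFD in Gpr75-/- mice, a difference of -0.48, and 5.36 and 5.28 in WT mice. On HFD the Gpr75-/- mean was the lowest of the 4 groups, the reverse of the order for *Pomc*.

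Of the genes of appetite-raising peptides, *Agrp* did not pass the count minimum and differed by -0.17 in Gpr75-/- and -0.43 in WT mice. All 6 measured of 9 listed had differences above 0, as did 5674 of all 12331 genes, and 2 were higher by at least 0.2 (3.71% of all genes). The 6 differences lay from 0.04 to 0.22 with a median of 0.16, whereas the median in WT mice was -0.13. *Npy*, encoding neuropeptide Y, had 4.46 log2 CPM on chow and 4.50 on HFD in Gpr75-/- mice, a difference no larger than its rounding error of 0.04. In WT mice it had 4.54 and 4.03, so that its WT mean on HFD stood below the other 3 groups, with a difference of -0.51. *Penk*, the enkephalin precursor, differed by 0.22 in Gpr75-/- and -0.39 in WT mice, and *Gal*, encoding galanin, by 0.22 and 0.04. *Pmch*, the precursor of melanin-concentrating hormone, differed by 0.19 in Gpr75-/- and -0.12 in WT mice, *Hcrt*, the orexin precursor, by 0.11 and -0.11, and *Pdyn*, the dynorphin precursor, by 0.13 and -0.13.

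**Figure D2:**
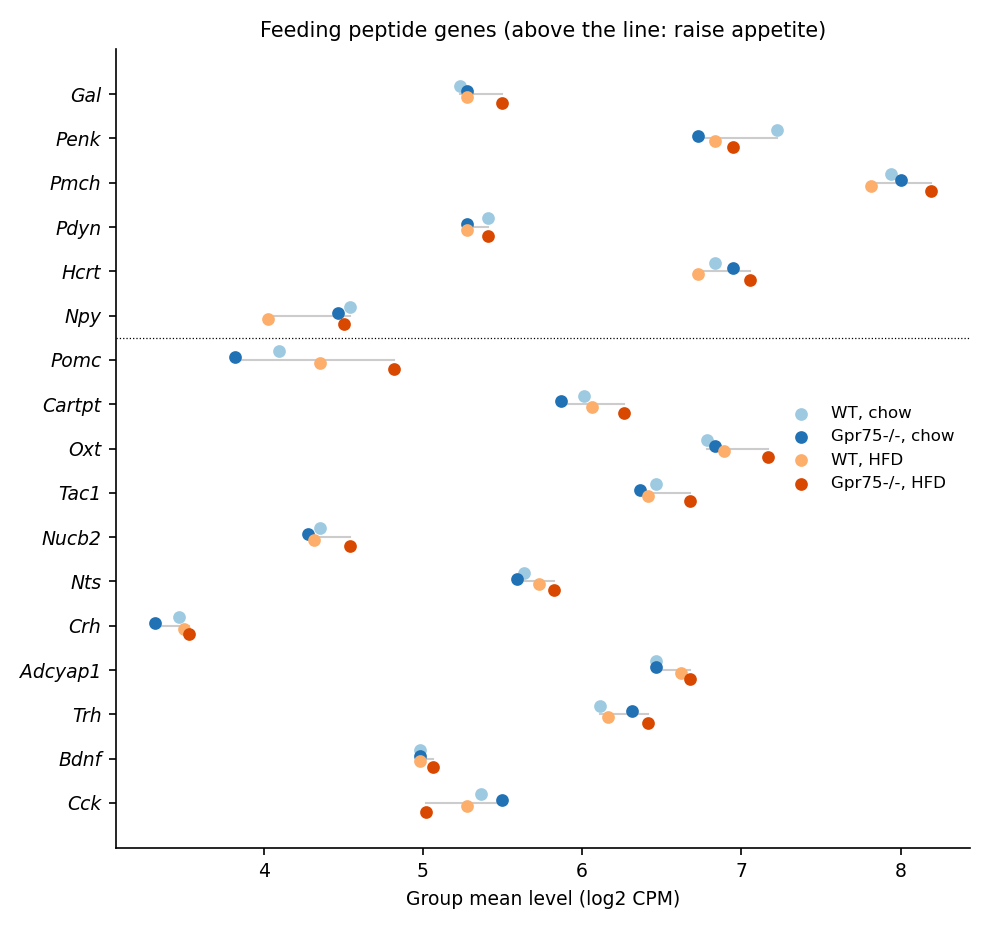
Group means (log2 CPM, 1 point per group of 3 mice, small vertical offsets for legibility) of the measured genes of appetite-raising peptides, above the dotted line, and appetite-lowering peptides, below it. The Gpr75-/- HFD mean of *Pomc*, 4.82, is the highest of its 4 groups, and the WT HFD mean of *Npy*, 4.03, is the lowest of its own. CPM is not per length, so levels compare across groups and not across genes.

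The list of hypothalamic hormone and dopamine genes shares *Trh*, *Crh* and *Oxt* with the appetite-lowering peptides. Of its 9 measured genes 5 were higher by at least 0.2, *Crh* and *Oxt* among them, and none was lower by that much (3.71% and 6.50% of all genes), with a median of 0.21 in Gpr75-/- and 0.12 in WT mice. *Th*, the rate-limiting enzyme of dopamine synthesis, had 4.66 log2 CPM on chow and 5.06 on HFD in Gpr75-/- mice, and 4.98 and 5.15 in WT mice. *Slc6a3*, the dopamine transporter, had 3.14 and 3.79 in Gpr75-/- mice, a difference of 0.65, and 4.43 and 4.66 in WT mice. Its genotype gap was larger than its diet difference, with Gpr75-/- mice 1.29 below WT mice on chow and 0.87 below on HFD.

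Of the 22 measured genes of the feeding receptor list, which besides receptors holds the ligand gene *Bdnf*, 6 were higher by at least 0.2 and 1 was lower (3.71% and 6.50% of all genes), with a median of 0.12 in Gpr75-/- and 0.07 in WT mice. *Crhr1*, a receptor for corticotropin-releasing hormone, had 2.60 log2 CPM on chow and 3.14 on HFD in Gpr75-/- mice, and 2.81 and 2.73 in WT mice. *Brs3*, an orphan receptor whose loss causes obesity in mice, differed by 0.40 in Gpr75-/- and 0.25 in WT mice. The lower receptor was *Oprm1*, the µ-opioid receptor, at -0.35 in Gpr75-/- and -0.02 in WT mice. In the leptin and insulin signalling list 4 of 14 genes were higher and 1 lower, to be read against the same shares, with a median of 0.02. *Serpina3n* differed by 0.39, *Cited1*, a transcriptional co-regulator, by 0.37 and *Bcl6* by 0.32, against 0.19, -0.06 and 0.23 in WT mice.

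None of 12 genes of granins and peptide processing reached 0.2 in Gpr75-/- mice, where 89.8% of all genes lay within it, with a median of 0.08 and a range from -0.18 to 0.16. *Scg2*, a granin, and *Pam*, which amidates peptides, differed by 0.16 each, and *Pcsk2*, a prohormone convertase, by -0.18. Of the 23 measured endoplasmic reticulum chaperones 7 were higher by at least 0.2 and none lower (3.71% and 6.50% of all genes), with a median of 0.10 in Gpr75-/- and 0.15 in WT mice. *Sdf2l1* differed by 0.38 and 0.45, *Manf* by 0.28 and 0.32 and *Xbp1*, the transcription factor of the unfolded protein response, by 0.23 and 0.23 in Gpr75-/- and WT mice. In heat shock and cold shock genes, 4 of 15 were higher, again against 3.71%, with *Dnajb1* at 0.41, *Hspb1* at 0.34 and *Hspa1b* at 0.22, where *Hspa1b* differed by 0.98 in WT mice.

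Of 18 measured immediate early genes 9 were lower by at least 0.2 in Gpr75-/- mice, 5 were above 0 and none was higher by 0.2, where 6.50% of all genes were lower by as much. In WT mice 9 were lower by at least 0.2, against 8.91% of all genes, and the median was -0.20 in Gpr75-/- and -0.20 in WT mice. *Btg2*, an antiproliferative co-regulator, had 4.70 log2 CPM on chow and 4.10 on HFD in Gpr75-/- mice, and 4.98 and 4.50 in WT mice. *Arc*, which acts at active synapses, had 4.50 and 3.96 in Gpr75-/- mice, and 4.86 and 4.43 in WT mice. *Nr4a1*, a nuclear receptor, had 4.82 and 4.31 in Gpr75-/- mice, and 4.78 and 4.66 in WT mice. For all 3 the Gpr75-/- HFD mean was the lowest of the 4 groups. *Dusp1*, a phosphatase of MAP kinases, differed by -0.47 in Gpr75-/- and -0.35 in WT mice.

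A promoter was found for 14 of the 18 genes. The full cAMP response element occurred in 2 of them, *Btg2* and *Dusp1*, whose sequences stand above, and a core in 9. Of the 6 with a promoter that were lower by at least 0.2 in Gpr75-/- mice, all 6 held a core, as did 3 of the 8 that were not. Over all promoters the share was 17.8%. The split depends on the line of 0.2, since *Ier5* at -0.19 and *Dusp6* at -0.17 lay just short of it and held no core. Whether the core has a part in the lower levels was not tested.

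In the glucocorticoid response list the genotypes parted. The median of 21 genes was 0.00 in Gpr75-/- mice, with 5 higher and 4 lower by at least 0.2, against 3.71% and 6.50% of all genes. In WT mice the median was 0.34, with 14 higher and 2 lower, against 6.91% and 8.91% of all genes. On chow the Gpr75-/- mice were above the WT mice by a median of 0.35, and on HFD by 0.07. *Plin4*, a lipid droplet protein, differed by -0.34 in Gpr75-/- and 0.40 in WT mice, and *Zbtb16*, a transcription factor, by -0.29 and 0.43. *Dusp1*, which is on this list as well as on that of the immediate early genes, was the lowest member. *Sgk1*, a kinase induced by glucocorticoids, was the highest member in Gpr75-/- mice, at 7.11 log2 CPM in WT mice on chow, 7.69 in Gpr75-/- mice on chow, 8.06 in WT mice on HFD and 8.32 in Gpr75-/- mice on HFD. *Nfkbia*, the inhibitor of NF-κB, differed by 0.38 in Gpr75-/- and 0.46 in WT mice.

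Among the genes most below chow on HFD in Gpr75-/- mice were *Slc17a7*, *Gabrb2*, *Gbx2* and *Gabrd*. *Slc17a7*, the vesicular glutamate transporter of cortical and some thalamic neurons, had 5.28 log2 CPM on chow and 4.35 on HFD in Gpr75-/- mice, or 0.527 times the chow level, and 5.15 and 4.82 in WT mice. *Gabrb2*, a GABA-A receptor subunit, had 5.92 and 5.02 in Gpr75-/- mice, and 6.67 and 5.68 in WT mice, a difference of -0.90 in the first and -0.99 in the second. *Gbx2*, a homeobox factor of the developing thalamus, had 3.99 and 3.17 in Gpr75-/- mice, and 3.99 and 3.56 in WT mice. *Gabrd*, the δ subunit of extrasynaptic GABA-A receptors, differed by -0.78 in Gpr75-/- and -0.54 in WT mice. *Tcf7l2*, a transcription factor of Wnt signalling that is strongly made in thalamus, had 8.45 and 7.94 in Gpr75-/- mice, and 8.38 and 8.19 in WT mice.

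The fixed list for neighbouring brain regions holds markers of thalamus, striatum, cortex and cerebellum. Of its 18 measured genes in Gpr75-/- mice 8 were lower by at least 0.2 and 1 was higher, against 6.50% and 3.71% of all genes (median -0.15), and in WT mice 13 were lower, against 8.91% of all genes, with a median of -0.34. With levels rebuilt from the mean normalized counts the Gpr75-/- median was -0.23 or -0.24, depending on the scaling. *Shox2* differed by -0.72 in Gpr75-/- and -0.40 in WT mice, and *Zic1* by -0.58 and -0.27. The striatal gene *Ppp1r1b*, encoding DARPP-32, showed another order, at -0.21 in Gpr75-/- and -0.95 in WT mice. The summed level of the 18 genes was 789 CPM in WT mice on chow, 700 in Gpr75-/- mice on chow, 644 in WT mice on HFD and 599 in Gpr75-/- mice on HFD. How much the tissue taken around the hypothalamus contributed to the differences above was not tested. Of 25 hypothalamic transcription factors 5 were higher and 3 lower (3.71% and 6.50% of all genes), with a median of 0.04, and *Lhx9*, which is also made in thalamus, was lowest at -0.74.

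Apart from *Kl*, the other 7 of the 12 genes most below chow had varied roles. *Raly* and *Eml2*, which encode an RNA-binding and a microtubule-associated protein, differed by -0.85 and -0.83 in Gpr75-/- and by -0.33 and -0.46 in WT mice. *Rab37*, a small GTPase of secretion, differed by -0.83 and -0.55, *Zkscan16*, a zinc finger gene, by -0.82 and -0.44, *Cntfr*, the receptor of ciliary neurotrophic factor, by -0.81 and -0.31, and *Max*, the partner of MYC, by -0.76 and -0.43. *Gm10800* was lowest at -1.18 in Gpr75-/- and -1.48 in WT mice, but its transcripts resemble satellite repeats and reads may be shared with other copies.

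*Kl*, which encodes klotho and is most abundant in choroid plexus, had 2.73 log2 CPM in WT mice on chow, 3.99 in Gpr75-/- mice on chow, 2.84 in WT mice on HFD and 3.0 in Gpr75-/- mice on HFD. The Gpr75-/- chow group alone stood apart, 1.26 above WT mice on the same diet, so that the diet difference of -0.99 rested on that group. With levels rebuilt from the mean normalized counts it was -1.77. The choroid plexus list had 9 of 24 genes measured, of which 6 were lower and none higher by at least 0.2 (6.50% and 3.71% of all genes), with a median of -0.26 in Gpr75-/- and -0.04 in WT mice. Of the 9 genes, 4 on chow and 1 on HFD had a mean normalized count over the 6 mice at least 0.1 log2 above the mean of the 2 group means, and the part of single mice in the list's difference was not tested. *Enpp2*, encoding autotaxin, had 8.25, 8.85, 8.38 and 8.19 in the same order of groups, and *Clic6* had 4.39, 4.78, 4.24 and 4.35. The summed level of the 9 genes was 509, 700, 523 and 496 CPM. *Ttr*, the defining gene of the choroid plexus, did not pass the count minimum and had 2.48, 3.69, 1.85 and 0.43 log2 CPM.

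In the hemoglobin genes, too, the highest mean was that of Gpr75-/- mice on chow, while the order of the other 3 groups differed between genes. *Hbb-bt* had 5.32 log2 CPM in WT mice on chow, 6.06 in Gpr75-/- mice on chow, 5.54 in WT mice on HFD and 5.32 in Gpr75-/- mice on HFD. *Hba-a1* had 6.31, 6.94, 6.41 and 6.26, *Hba-a2* had 6.06, 6.67, 6.21 and 6.01, and *Hbb-bs* had 6.41, 7.17, 6.67 and 6.57. The 4 diet differences in Gpr75-/- mice lay from -0.74 to -0.60 and those in WT mice from 0.10 to 0.26, and the 4 genes have close copies between which reads can be split. Of the 6 measured red blood cell genes, *Bpgm*, which is also made in other cells, differed by 0.05. In the 4 hemoglobin genes the chow group of Gpr75-/- mice was the high one, and the part of blood left in the tissue was not tested.

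The remaining genes most above chow on HFD in Gpr75-/- mice were of several kinds. *Spp1*, encoding osteopontin, had 3.63 log2 CPM on chow and 4.28 on HFD in Gpr75-/- mice, and 3.72 and 3.86 in WT mice. *Ccn3*, a secreted matrix protein, differed by 0.63 in Gpr75-/- and 0.59 in WT mice, *Serping1*, the C1 inhibitor of complement, by 0.64 and 0.45, *Plekhf1* by 0.59 and 0.60 and *Tmem267* by 0.64 and 0.28. *Acta2* and *Myh11*, the actin and myosin of smooth muscle, had differences of 0.61 and 0.50 in Gpr75-/- and 0.09 and 0.19 in WT mice, while the 24 genes of endothelium and vessel wall had a median of 0.00.

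**Figure D3:**
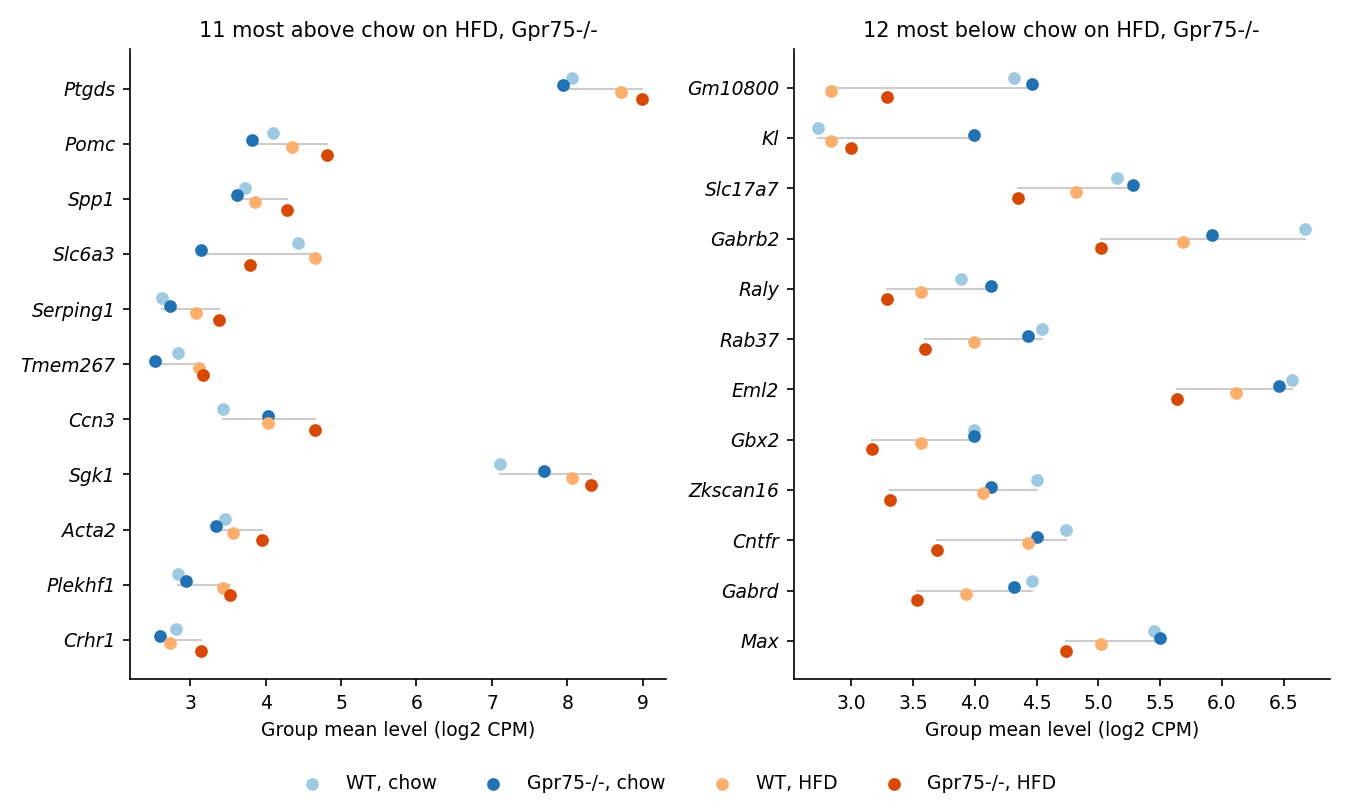
Group means (log2 CPM, 1 point per group of 3 mice, small vertical offsets for legibility) of the 11 protein-coding genes most above and the 12 most below chow on HFD in Gpr75-/- mice. *Pomc* reaches 4.82 and *Ptgds* 8.99 in Gpr75-/- mice on HFD, whereas the 3.99 of *Kl* in Gpr75-/- mice on chow lies apart from its other 3 groups.

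A measure that may reflect how far single mice lay apart was taken for each gene. The mean normalized count of the 6 mice was set against the mean of the 2 group means, and the gap between them lay between -0.02 and 0.02 log2 for the central 90% of genes on either diet. If the group means were taken over log values, which no source used here states, such a gap is left where single mice lie far apart. Over all 12331 genes, gaps of 0.1 or more occurred for 15 on chow and 11 on HFD. Such gaps occurred for 5 of the 14 higher and 4 of the 68 lower genes. Among the protein-coding ones they were 0.78 for *Kl*, 0.59 for *Gm10800*, 0.25 for *Enpp2*, 0.22 for *Scube1* and 0.18 for *Slc6a3* on chow, and 0.39 for *Gm10800*, 0.17 for *Ptgds*, 0.15 for *Spp1*, 0.15 for *Ccn3* and 0.13 for *Slc6a3* on HFD. For *Pomc* they were 0.03 and -0.02, and for *Slc17a7* 0.04 and 0.03. For the 4 hemoglobin genes they did not exceed 0.04.

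GPR75 couples to Gαq, which signals through phospholipase C. Of 12 measured genes of the Gq pathway 4 were lower by at least 0.2, *Gpr75* included, and none higher, where 6.50% of all genes were lower by as much, with a median of -0.06 in Gpr75-/- and -0.08 in WT mice. *Itpr1*, the calcium release channel opened by IP3, differed by -0.35 in Gpr75-/- and -0.51 in WT mice, and *Plcb4*, a phospholipase C, by -0.25 and -0.12. In the primary cilia, the organelle in which GPR75 is found, 19 of 21 genes lay within 0.2, near the 89.8% of all genes, with a median of 0.00. *Mchr1*, the ciliary receptor of melanin-concentrating hormone, differed by 0.24 and -0.06, *Rpgrip1l* by -0.23 and -0.28, and *Adcy3*, the ciliary adenylyl cyclase, by 0.14 and -0.14.

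Lipid genes were near 0 as lists. The median over 23 cholesterol synthesis genes was 0.00 in Gpr75-/- and 0.12 in WT mice, with *Hsd17b7* at -0.24, *Ebp* at 0.21 and *Tm7sf2* at -0.18. Fatty acid synthesis genes had a median of 0.05 over 14 genes, with *Acaca*, acetyl-CoA carboxylase, at -0.33, *Scd1* at 0.18 and *Fads2* at 0.13. Of 28 genes of fatty acid oxidation and ketone use 2 were higher and 3 lower (3.71% and 6.50% of all genes), with a median of -0.02. *Fabp7*, a fatty acid carrier of glia and tanycytes, differed by -0.42 and *Acot2* by -0.29 in Gpr75-/- mice, against -0.28 and -0.08 in WT mice.

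Glial and inflammatory lists had medians near 0, with single members past the fold. None of 18 microglia and inflammation genes reached 0.2, where 89.8% of all genes lay within it. Their range was from -0.16 for *Siglech* to 0.18 for *Itgam*, with *H2-D1* at 0.14. Astrocyte genes had a median of 0.08 over 23 genes, with *Serpina3n* at 0.39, *Agt*, encoding angiotensinogen, at 0.37 and *Gfap* at 0.29, against 0.19, 0.12 and 0.23 in WT mice. Oligodendrocyte and myelin genes had a median of 0.05 over 30 genes. *Enpp2*, which is on this list as well as on that of the choroid plexus, was lowest and *Gsn* differed by 0.25. Of 12 oligodendrocyte precursor genes 1 was higher and 1 lower (3.71% and 6.50% of all genes), with *Tcf7l2* at -0.51, *Neu4* at 0.20, *Gpr17* at 0.19 and a median of -0.09. Interferon response genes had a median of 0.11 over 10 genes, with *Ifitm3* at 0.25, *Irf9* at 0.17 and *Ifit3* at 0.17, where *Ifit3* differed by 0.51 in WT mice. Tanycyte and ependymal genes had a median of 0.00 over 14 genes, with *Lhx2* at -0.53, *Ccdc153* at -0.39 and *Hdc*, which makes histamine, at 0.33.

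Core neuronal and metabolic lists had medians between -0.08 and 0.09. Of the 20 pan-neuronal genes 18 lay within 0.2, near the 89.8% of all genes, and besides *Slc17a7* only *Nefh*, a neurofilament, was lower at -0.28, while *Nefm* was at -0.17. Of the 32 receptor subunits for GABA and glutamate 6 were lower and 1 higher (6.50% and 3.71% of all genes), with *Grin2a* at -0.38 and *Gabbr2* at -0.26 after *Gabrb2*, and the median was 0.00. Circadian clock genes had 1 higher and 4 lower of 20, against the same shares, with *Rora* at -0.41, *Npas2* at -0.40, *Rorb* at -0.24 and a median of -0.05. Thyroid hormone action had a median of 0.00 over 13 genes, with *Rxrg* at 0.22 and *Hr* at -0.14. The 13 mitochondrially encoded genes had a median of -0.08 in Gpr75-/- and -0.16 in WT mice, with *mt-Nd6* at -0.30, *mt-Nd5* at -0.24 and *mt-Nd4* at -0.17. None of 78 nuclear respiratory chain subunits reached 0.2, from *Ndufa10* at -0.17 and *Ndufs3* at -0.15 to *Uqcrq* at 0.15, and their median was 0.05. Of the 76 cytosolic ribosomal protein genes 66 had differences above 0, with a median of 0.09 against 0.00 in WT mice. *Rps12* was highest at 0.30, *Rpl36* followed at 0.27 and *Rps27* at 0.26. Over all genes 5674 were above 0 and 4554 below. *Abcc9*, of pericytes, differed by -0.32.

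**Figure D4:**
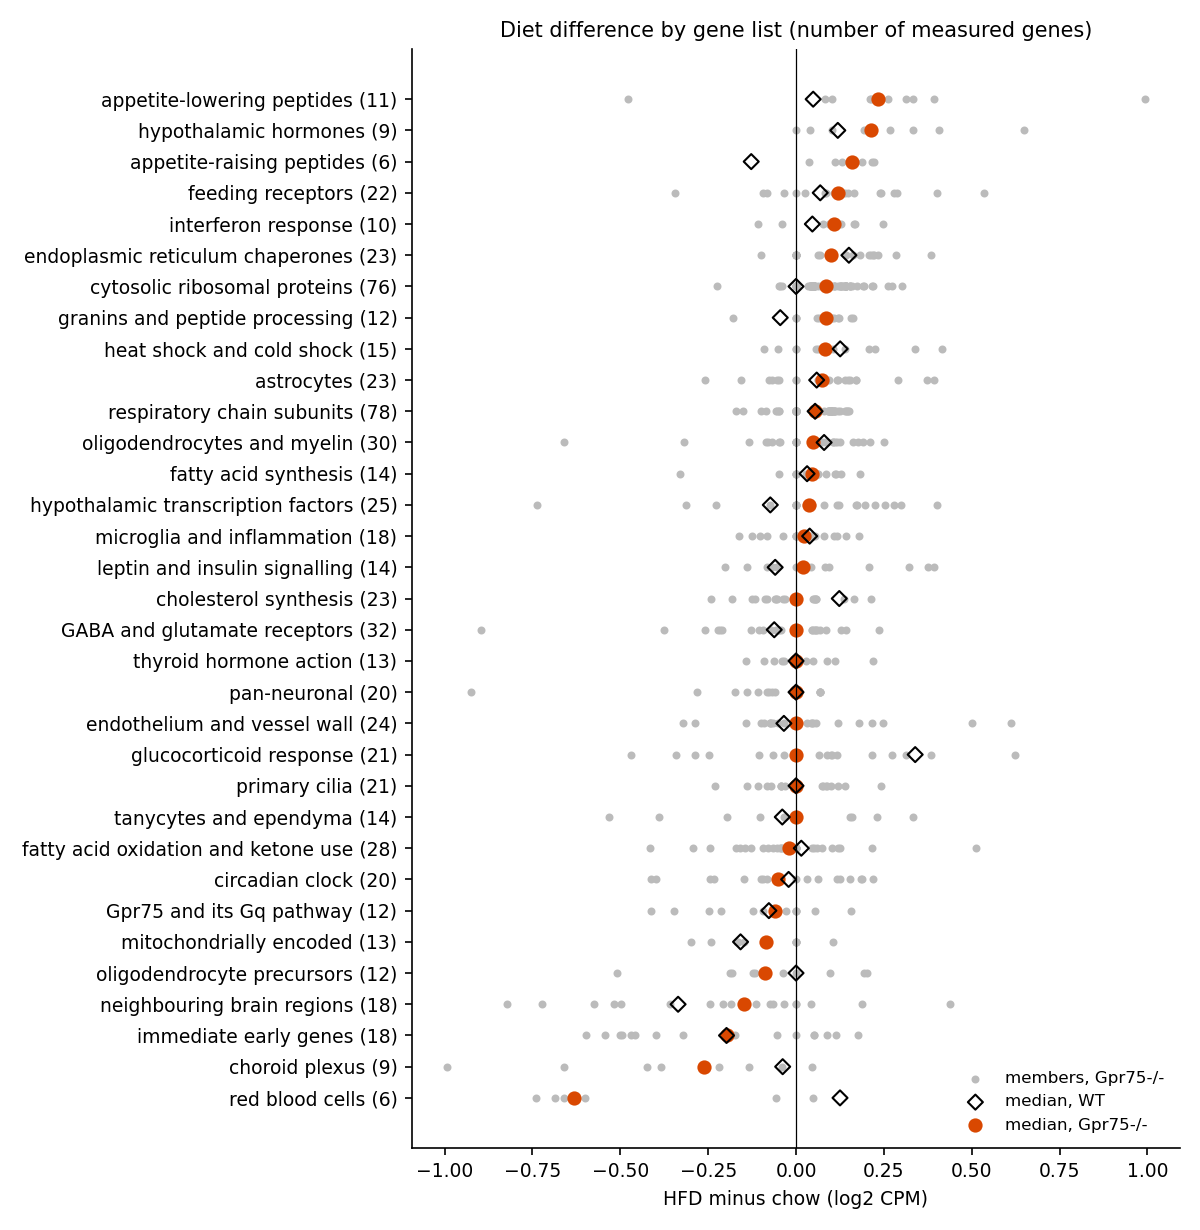
Diet difference (HFD minus chow, log2 CPM) of the measured genes of each list in Gpr75-/- mice (grey points), with the list's median in Gpr75-/- mice (filled circle) and in WT mice (open diamond) and the number of genes in brackets. Lists are ordered by the first median, from 0.23 for appetite-lowering peptides to -0.63 for red blood cells.

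The diet differences of the 2 genotypes were set side by side gene by gene. They share no mice, but share the scaling of each diet's table and whatever else set the tables apart. Across the 12331 genes, Pearson's r was 0.47 and Spearman's rho 0.44, a description only, since genes are not independent replicates. Of the 82 genes past the fold in Gpr75-/- mice, 14 were past it the same way in WT mice: 4 of the 14 higher and 10 of the 68 lower. Over all genes in WT mice, 0.219% were past it as higher and 0.470% as lower. Of the other lower genes, 27 were lower in WT mice by 0.2 to 0.5, 27 lay within 0.2 and 4 were higher by at least 0.2. Of the other higher genes, 4 were higher in WT mice by 0.2 to 0.5, 5 lay within 0.2 and 1 was lower by at least 0.2. Over all genes in WT mice, 84.2% lay within 0.2. The sign was the same in WT mice for 10 of the 14 higher and 53 of the 68 lower genes. Over all genes with both differences nonzero it was the same for 70.9%. The largest gaps between the genotypes among protein-coding genes past the fold were those of *Kl*, *Hbb-bt*, *Scube1*, *Hbb-bs*, *Hba-a2* and *Enpp2*. In *Scube1*, a secreted protein of vessels and neurons, the means were 2.73 log2 CPM in WT mice on chow, 3.06 in Gpr75-/- mice on chow, 3.11 in WT mice on HFD and 2.51 in Gpr75-/- mice on HFD. None of these gaps was tested here.

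**Figure D5:**
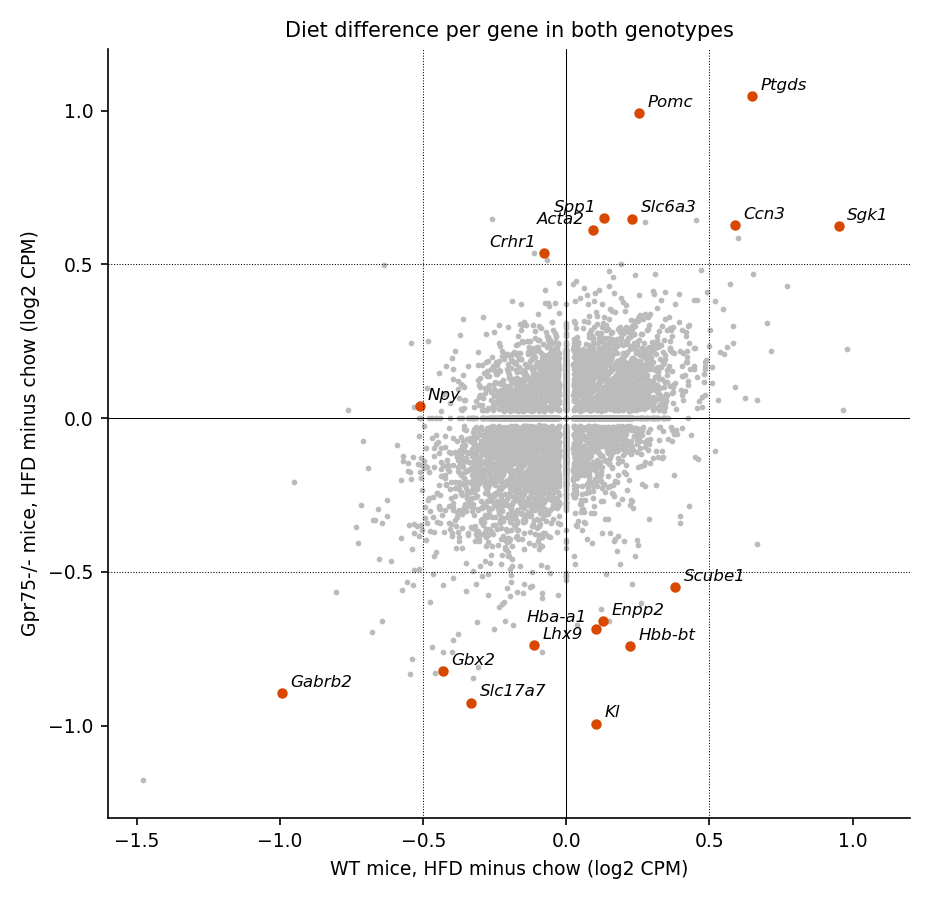
Diet difference (HFD minus chow, log2 CPM) of each of 12331 genes in Gpr75-/- mice against that in WT mice, with dotted lines at 0.5 in both directions. *Gabrb2* (-0.90 and -0.99) lies near the diagonal and *Ptgds* (1.05 and 0.65) 0.40 above it. *Pomc* (0.99 and 0.25) and *Slc17a7* (-0.92 and -0.33) lie nearer the vertical axis, and *Npy* (0.04 and -0.51) by the horizontal one.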

How the data were processed

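Hypothalamus RNA of 12 mice was prepared with TRIzol and a PureLink kit, made into libraries with a SMART-Seq mRNA LP kit and sequenced as read pairs on a NovaSeq instrument. The submitters' processing notes name STAR, featureCounts, StringTie, DESeq2 and build GRCm39, without versions. The signal the authors deposited per gene is the mean over a diet's 6 mice of normalized counts. The group means the authors deposited are on a log2 scale that behaves as log2(log2 CPM + 1): values x turned into 2 to the power x minus 1 rose with a slope of 1.00 on the log2 mean normalized count, and the CPM so obtained summed to between 992419 and 994240 per group. That scale was read from the values. The tables also hold the authors' fold changes of Gpr75-/- over WT, standard errors and p-values, which were not used. Depth per mouse was not used.

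The tables were joined by Ensembl identifier. Differences were computed in Python 3.11.15 with numpy 2.4.6 and pandas 2.3.3, and were tested on simulated data. The members and the 33 gene lists (31 written by hand and 2 from symbol patterns) were chosen with earlier results of these data known. Genes named are the 12 protein-coding genes with the largest difference in each direction, *Gpr75*, all measured feeding peptides, the 3 members of each list with the largest absolute difference, and the 6 genes past the fold with the largest gap to WT. *Ttr*, *Asb3*, *Agrp*, *Bpgm*, *Plin4*, *Zbtb16*, *Ppp1r1b*, *Ier5*, *Dusp6* and the genes of the closing section were named after their values were seen, and a few results of single genes are left out. At the count minimum, *Gm10767* was just inside at 100.0008 on chow with a difference of -0.07, and *Gm47033* just outside at 99.9752 with -0.16. Samples were grouped by their labels. Alternatives were another centring, levels rebuilt from the mean normalized counts with either of 2 scalings, other count minimums, rounding errors taken off, protein-coding genes alone and the genotype gap as yardstick. Promoters were matched by symbol to RefSeq of build GRCm38.p6. Figures used matplotlib 3.10.9.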

Additional observations from a re-analysis of the deposited data

How the results depend on the processing

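Under another centring, both scalings of the rebuilt levels, rounding errors taken off, protein-coding genes alone and the genotype gap as yardstick (the last not run for the overlap with WT), the counts of higher, lower and shared genes stayed within 1.5 times the 14, 68 and 14 reported. With every gene of both tables they were 102, 228 and 68, and with a mean normalized count of at least 500 they were 2, 23 and 4. Without genes whose mean normalized count stood at least 0.1 log2 above the mean of the 2 group means, an alternative chosen after seeing the data, 9 were higher. The share of higher among all genes past the fold was 17.1%. It was 30.9% with every gene, 8.0% with a mean normalized count of at least 500, and between 12.3% and 21.8% under the other settings. No list median of at least 0.2 and no named difference of at least 0.5 changed sign under the centring or the scalings. Of all 366 values for named genes under these settings, whatever their size, 33 moved by more than the rounding error, and of 99 medians of lists 2 did, those of neighbouring brain regions at -0.23 and -0.24. The median over all genes moved by at most 0.0083. No paired analysis was possible because the tables hold group means and no value of a single mouse, so leaving out each mouse was not run either. The spread between mice was not used here, so what depth limits was not measured.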

Other observations

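Of the genes in both tables, 260 passed the count minimum on 1 diet only, and among them 15 were higher and 14 lower by at least 0.5 in Gpr75-/- mice. A gene that passes on 1 diet alone is likely to be higher there, so the directions of these genes are given as values only. *Npas4*, an immediate early gene of neurons, had 2.92 log2 CPM in WT mice on chow, 2.46 in Gpr75-/- mice on chow, 1.55 in WT mice on HFD and 1.10 in Gpr75-/- mice on HFD, and *Egr4* had 2.68, 2.12, 2.01 and 1.57 in the same order. The diet difference of *Npas4* was thus -1.36 in Gpr75-/- and -1.37 in WT mice.

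The next genes passed on HFD alone. *Fmod*, encoding fibromodulin, differed by 1.37 in Gpr75-/- and 1.16 in WT mice, *Ogn*, encoding osteoglycin, by 1.03 and 1.15, *Mgp*, matrix Gla protein, by 0.77 and 0.62, and *Col3a1*, a collagen, by 0.75 and 0.73. On HFD the mean normalized count of *Fmod* stood 0.61 log2 above the mean of its 2 group means, that of *Ogn* 0.55 and that of *Slc13a4*, a sulfate transporter, 0.70. These genes were chosen after their values were seen.

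For *Ttr* the mean normalized count was 2910 on chow and 48.5 on HFD, and on chow it stood 4.09 log2 above the mean of the 2 group means. *Alas2*, the erythroid enzyme of heme synthesis, had 2.53, 2.86, 2.56 and 2.03 log2 CPM in WT and Gpr75-/- mice on chow and WT and Gpr75-/- mice on HFD. It passed the minimum on chow alone, the diet on which its level was the higher in Gpr75-/- mice.

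Feeding genes under the count minimum had low levels. *Ghsr*, the ghrelin receptor, differed by 0.44 in Gpr75-/- and 0.13 in WT mice, and *Mc4r*, the melanocortin receptor of the paraventricular nucleus, by 0.29 and 0.13. *Lepr*, the leptin receptor, differed by 0.04 and -0.28, *Crhr2*, a receptor for urocortins, by 0.02 and 0.19, and *Ucn3*, encoding urocortin 3, by -0.39 and -0.17. The annotated span of *Agrp* overlaps those of 4 other listed genes, so that part of its reads may be theirs.

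Across genes, the diet difference had a Spearman correlation of -0.19 with gene span in Gpr75-/- and of -0.09 in WT mice over 12331 genes, a description only.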
